A study of Caenorhabditis elegans with 2 samples.

Results

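The genes described here are 10 protein-coding genes of the mitochondrial genome of Caenorhabditis elegans that encode subunits of the respiratory chain, out of 19985 protein-coding genes in the annotation. They are ND1, ND2, ND3, ND4 (MTCE.25), ND4L and ND5 of complex I, CYTB of complex III, and COX1, COX2 and COX3 of complex IV. They were chosen by name, from peaks already seen on this genome in the same data, so the presence and height of peaks over them are described below without a test. The 2 other protein-coding genes of the mitochondrial genome, ND6 and ATP6, its 2 rRNA genes and its 22 tRNA genes serve only for comparison.

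The peaks came from ChIP-seq of NHR-11, a nuclear hormone receptor, that is, a transcription factor of the ligand-regulated type. Whole L2 larvae of both sexes were used, from strain OP305, in which the integrated transgene wgIs305 supplies nhr-11 fused to eGFP in animals that carry unc-119(ed3) on chromosome III. There was 1 group with 2 biological replicates, each with 1 technical replicate, and chromatin fragments of 150 to 350 bp. No untagged strain, other stage or other genotype was among the samples, so comparisons are between genes, between stretches of the mitochondrial genome, and between the replicates. Because the larvae were taken whole, more copies of mitochondrial DNA per cell, more cells of a type and more protein per copy cannot be told apart in these peaks.

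The respiratory chain of the inner mitochondrial membrane passes electrons from NADH through complex I, complex III and complex IV to oxygen, and the proton gradient it builds drives ATP synthesis. Most of its subunits are encoded in the nucleus, and a small core is encoded by mitochondrial DNA, a compact circle with almost no spacer between genes. In C. elegans all mitochondrial genes are read from the same strand, many are separated by tRNA genes that are cut out of the long transcript, and the main stretch without genes is an AT-rich region. Transcription of this circle is carried out by its own RNA polymerase and a small set of mitochondrial factors, while nuclear hormone receptors are known as regulators of nuclear genes.

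Each peak in the deposited lists has a signal, which is the peak caller's own value on a scale that no source used here explains, and a summit, the base at which the caller placed the top of the peak. The thresholded list, made by the authors from the pooled replicates with the irreproducible discovery rate procedure, gave 26 mitochondrial peaks on build ce11, and 21 of them had their summit inside one of the 10 genes. The sequences around the strongest summit of 8 of the genes follow, because these are the positions to which the largest values refer. Each is the transcribed strand, 5′ to 3′, of 61 bases read from the RefSeq genome of build WBcel235 (ce11), with the summit base and 2 bases on each side in capitals.
ND5, chrM:12393-12453: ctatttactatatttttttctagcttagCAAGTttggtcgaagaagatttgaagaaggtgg
COX2, chrM:10150-10210: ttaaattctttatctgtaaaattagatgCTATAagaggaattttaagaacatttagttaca
COX3, chrM:6016-6076: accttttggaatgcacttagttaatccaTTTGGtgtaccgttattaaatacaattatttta
ND2, chrM:3410-3470: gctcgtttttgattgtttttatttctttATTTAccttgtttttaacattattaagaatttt
CYTB, chrM:4649-4709: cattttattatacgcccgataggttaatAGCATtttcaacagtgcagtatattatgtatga
COX1, chrM:8941-9001: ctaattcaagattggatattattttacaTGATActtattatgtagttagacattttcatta
ND1, chrM:1882-1942: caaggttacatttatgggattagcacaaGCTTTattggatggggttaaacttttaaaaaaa
ND4, chrM:7684-7744: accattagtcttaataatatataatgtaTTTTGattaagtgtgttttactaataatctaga
These windows range in A+T content from 67.21% for ND5 to 80.33% for ND2 and ND4, and all lie within or across the start or end of coding sequence. The member with no peak, ND4L, is shown whole (chrM:549-782, 234 bp, 81.62% A+T), to set beside them.
ND4L, chrM:549-782: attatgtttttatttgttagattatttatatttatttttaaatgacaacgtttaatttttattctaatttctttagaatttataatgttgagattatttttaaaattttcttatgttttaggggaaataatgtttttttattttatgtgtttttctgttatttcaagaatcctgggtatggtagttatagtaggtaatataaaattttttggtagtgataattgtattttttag

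Peaks lay over 9 of the 10 genes in the thresholded list. Over all annotated protein-coding genes, 0.876% had a thresholded peak on the gene body by at least 1 bp, and since the members were chosen on these peaks nothing is read from the contrast. The same 9 genes had peaks among the strongest peaks of replicate 1 and among those of replicate 2, each list being cut to the length of the thresholded one, where the shares over all genes were 0.851% and 0.831%. In the pooled list with no threshold, which reached 31.5% of all protein-coding genes, ND4L still had no peak. The 21 member peaks ran in signal from 34.45 to 447.5 with a median of 132.9, against a median of 32.99 for the nuclear peaks of the thresholded list. Of its 10 strongest peaks 7 were in members, of the 15 strongest 12, and of the 50 strongest 20. The strongest nuclear peak had rank 7, and 5 member peaks exceeded it. High signal was not confined to the members, since 14 of the 15 strongest peaks were mitochondrial. The s-rRNA gene had a peak of 224.5 at rank 4, the l-rRNA gene one of 149.7 at rank 10, and ND6 one of 110.4 at rank 20, all within the range of the member peaks. ATP6 held a summit of 79.51 at rank 29. Both rRNA genes held summits in each replicate. In replicate 2, even with no threshold, ND6 had no peak and ATP6 no summit.

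**Figure D1:**
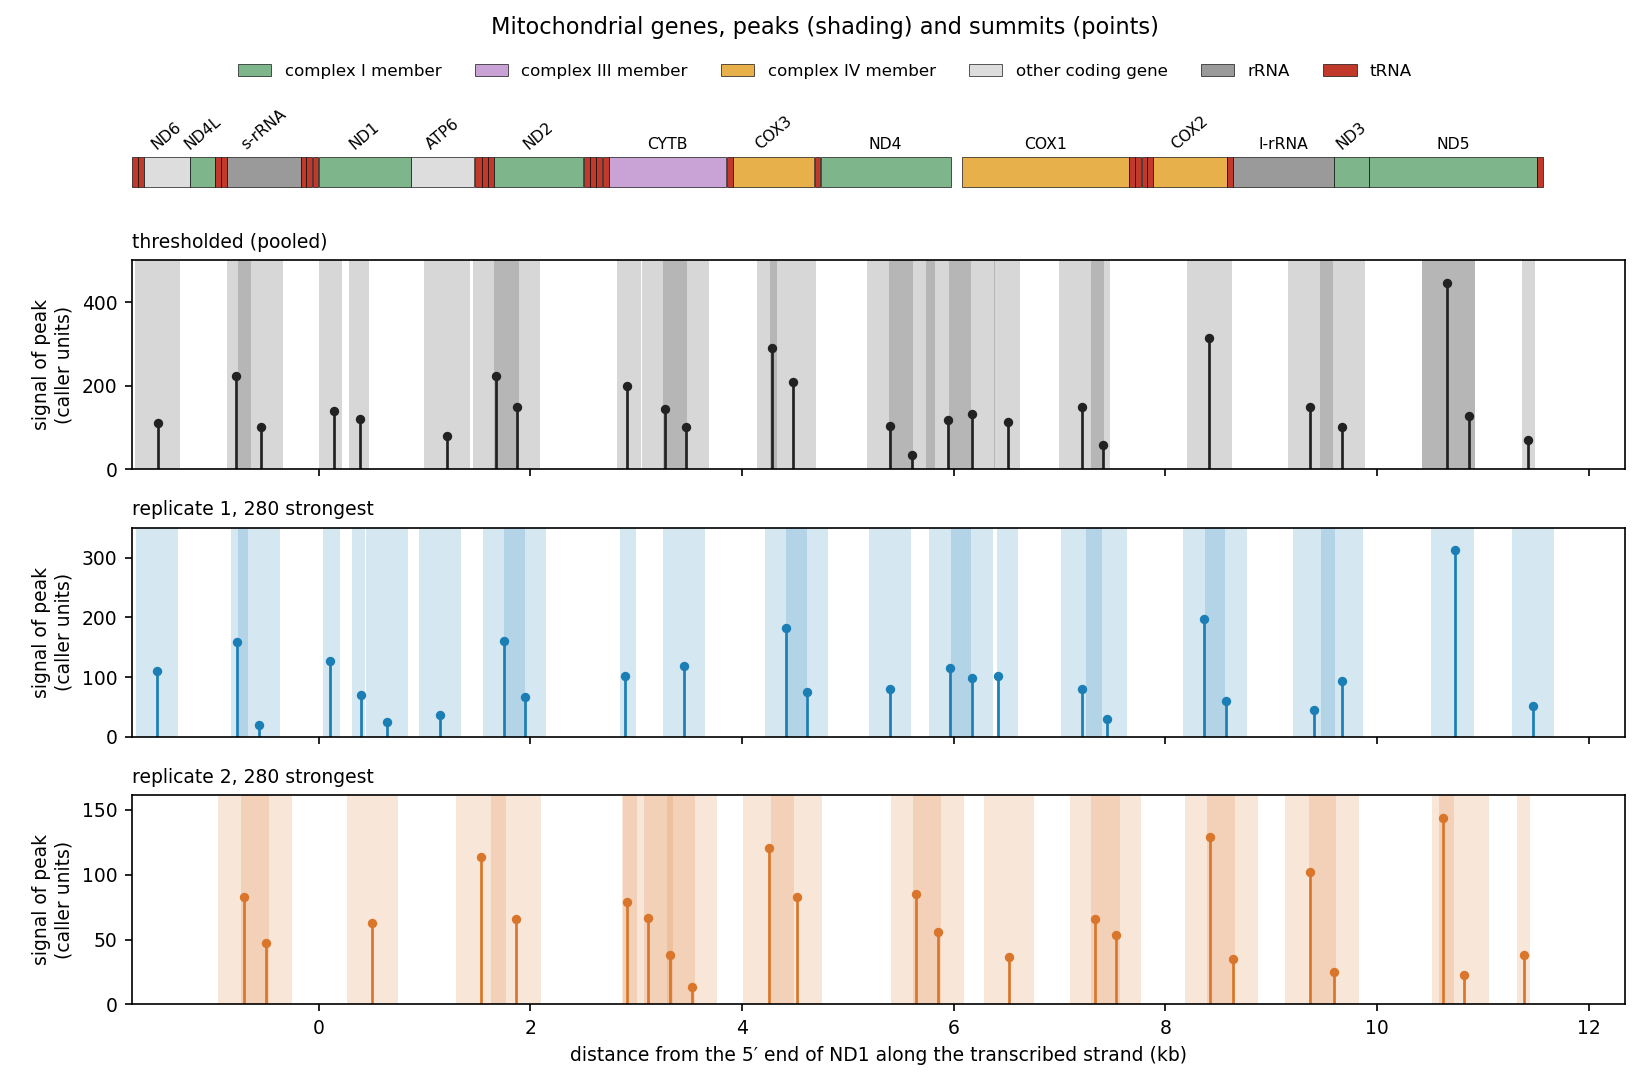
Mitochondrial genes drawn to scale above the peaks of the thresholded list, of replicate 1 and of replicate 2 (each replicate cut to its strongest peaks). The x axis is the distance in kb from the 5′ end of ND1, shading marks peak intervals (darker where they overlap), and points give summit position and signal in the caller's units, on a separate scale in each panel. In all 3 panels the highest point stands in ND5 and no interval touches ND4L.

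ND5, which encodes one of the large proton-pumping subunits in the membrane arm of complex I, held the strongest peak of each list. Its top summit had a signal of 447.5 in the thresholded list, 312.7 in replicate 1 and 144 in replicate 2, and ranked 1 in all 3. The gene (chrM:11691-13274, 1584 bp) was nevertheless the least covered of the 9 members with a peak, with 38.70% of its length inside a thresholded peak. Among each replicate's strongest peaks it was also the least covered, with 40.34% in replicate 1 and 41.79% in replicate 2. With no threshold, replicate 2 covered 55.05% of ND5, more than of ND4 (47.15%), ND2 (52.53%) and ND1 (54.34%). The thresholded interval chrM:12190-12686 was listed with a pair of summits, at 12423 and at 12631 (signal 127.6), and another ND5 summit lay at 13191, near the 3′ end of the gene, with a signal of 69.57. The first 5′ stretch of the gene up to base 12189, and a stretch of 449 bp from 12687 to 13135, had no thresholded peak. The strong summit was placed at 3 different bases by the 3 lists, shown in capitals in the next sequence: base 12384 in replicate 2, base 12423 in the thresholded list and base 12495 in replicate 1.
ND5 summits, chrM:12364-12515: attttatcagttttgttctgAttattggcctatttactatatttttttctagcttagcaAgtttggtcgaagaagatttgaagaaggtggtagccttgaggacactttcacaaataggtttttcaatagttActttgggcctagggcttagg

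ND2, another membrane subunit of complex I, had the next strongest peak of the complex I genes in the thresholded list and in replicate 1, but the replicates differed in where they placed the peak. The thresholded list had summits at 3440 (signal 223.9) and 3639 (signal 148.8), both in the first part of the gene (chrM:3418-4266), of which 51.35% was covered. Replicate 1 put its strongest ND2 summit at 3513 with a signal of 160.4 and another at 3716 with 67.52. Replicate 2 had 1 summit inside ND2, at 3626 with a signal of 66.16, and a stronger one of 113.4 at base 3299, in the tRNA-Lys gene upstream of ND2.

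ND1, the membrane subunit where the quinone site of complex I lies at the junction with the peripheral arm, had thresholded summits at 1912 (signal 138.6) and 2158 (120.9), with 46.23% of its 876 bp covered (chrM:1763-2638). Replicate 1 listed 3 summits there, with signals of 127.5, 70.83 and 25.65, and covered 78.20% of the gene. Replicate 2 listed 1, with a signal of 62.51 at base 2273, and covered 54.34%. No peak of replicate 2, even without a threshold, overlapped the thresholded peak at 1912.

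ND4 (chrM:6506-7735), a proton-pumping subunit like ND5, held 3 thresholded summits, all in the 3′ part of the gene. Their signals were 102.9 at base 7163, 34.45 at 7372 and 118.2 at 7714, and 34.45, at rank 141, was the lowest of any member peak. Replicate 1 had summits at 7163 (80.41) and 7728 (114.6), and replicate 2 at 7406 (84.8) and 7620 (55.53). The thresholded list left the first part of ND4 up to base 6947 without a peak, and covered 64.07% of the gene. The summit at 7714 lies near the stop codon. Its interval, together with the next one, runs across the stretch of 109 bp to COX1, which is noncoding by RefSeq bounds. Ensembl bounds end ND4 at 7808 and start COX1 at 7827, so most of that stretch lies inside their bounds there. The 109 bp were wholly inside thresholded peaks and are printed here as sequence under a peak that is noncoding in RefSeq.
ND4-COX1 spacer, chrM:7736-7844: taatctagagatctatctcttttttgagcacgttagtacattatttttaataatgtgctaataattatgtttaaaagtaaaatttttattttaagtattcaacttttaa

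ND3 and ND4L are the short membrane subunits of complex I, and they stood at opposite ends of coverage. ND3 (chrM:11356-11691, 336 bp) had 1 summit with a signal of 100.6 in the thresholded list, 93.62 in replicate 1 and 24.77 in replicate 2, the lowest of the 9 members in all 3 lists by their strongest summit. Its coverage was the highest of the members in the thresholded list (87.50%) and in replicate 1 (80.65%), while in replicate 2 (70.83%) COX3 and CYTB were covered more. The gene is shorter than the peak, whose interval begins in the neighbouring l-rRNA gene. ND4L had 0 peaks, 0 summits and 0% of its length covered in the thresholded list, in the pooled list with no threshold and in both replicates with no threshold. ND4L lies inside a stretch from 460 to 816 that no list covered, with the nearest thresholded peaks ending at 459 and starting at 897. At 81.62% A+T it is the member richest in A+T, with ND2 next at 80.21%.

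CYTB encodes cytochrome b, the subunit of complex III that carries both quinone sites, and after ND3 it was the most covered member in the thresholded list. It held 3 thresholded summits, at 4679 (signal 200.5), 5033 (144.5) and 5236 (100.3), with 76.91% of the gene covered (chrM:4504-5616). At the first of them the lists were close: replicate 1 had its summit at 4661 (102.5) and replicate 2 at 4673 (79.17), 12 bp apart. Replicate 1 had 1 further summit, at 5214 (118.3), and covered 48.97% of CYTB. Replicate 2 had 3 further ones, at 4879 (66.69), 5079 (37.88) and 5295 (13.53), and covered 80.86%. The first peak of CYTB began at base 4586, and the 5′ end of the gene was covered in no list.

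COX2 and COX3, which encode core subunits of cytochrome c oxidase (COX2 holds the copper centre that accepts electrons from cytochrome c), carried the strongest peaks after ND5. COX2 (chrM:9649-10344) had 1 thresholded peak, with its summit at 10180 and a signal of 315.3, rank 2. In replicate 1 its summits lay at 10126 (196.6, rank 2) and 10338 (60.41), and in replicate 2 at 10185 (128.8, rank 2). Coverage of COX2 was 54.60% in the thresholded list, 59.91% in replicate 1 and 57.18% in replicate 2, and the 5′ part of the gene up to base 9927 was covered in none.

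COX3 (chrM:5678-6445) had thresholded summits at 6046 (signal 290.6, rank 3) and 6245 (209.1, rank 6). Replicate 1 put its summits at 6180 (182.9) and 6382 (75.85), and replicate 2 at 6015 (121) and 6280 (82.79). The strongest COX3 peak had rank 3 in each replicate too, yet its 2 summits were 165 bp apart. Covered length was 70.70% of COX3 in the thresholded list, 60.42% in replicate 1 and 87.11% in replicate 2.

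COX1, the catalytic subunit of complex IV with the haem and copper site that reduces oxygen, is the member lowest in A+T (70.34%) and had 4 thresholded summits. Their signals were 132.9 at base 7937, 113.2 at 8277, 150.5 at 8971 and 58.27 at 9170 (chrM:7845-9422, 65.40% covered). The replicate 1 summits were at 7937 (98.91), 8182 (102.1), 8972 (80.26) and 9208 (29.73). Replicate 2 had 3 summits, at 8289 (36.93), 9099 (65.71) and 9298 (53.75), and none near 7937. The window of 50 bp on each side of the summit at 8277 had 55.45% A+T, as low as any such window on the circle.

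Ordered by their strongest summit, the members ran ND5, COX2, COX3, ND2, CYTB, COX1, ND1, ND4, ND3 in the thresholded list. In replicate 1 the order was ND5, COX2, COX3, ND2, ND1, CYTB, ND4, COX1, ND3, and in replicate 2 it was ND5, COX2, COX3, ND4, CYTB, ND2, COX1, ND1, ND3. The first 3 genes and the last were thus in the same place in all 3 lists, and the 5 between them changed places. The lists give no error for a peak, so neighbours in these orders cannot be called different. Whether the replicates' signals share a scale is not known. Over the 24 thresholded mitochondrial peaks matched in both replicates, the log2 signals had Pearson's r of 0.0574 and Spearman's rho of 0.159, given as a description: the points share 1 small circle, and some share a replicate peak.

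**Figure D2:**
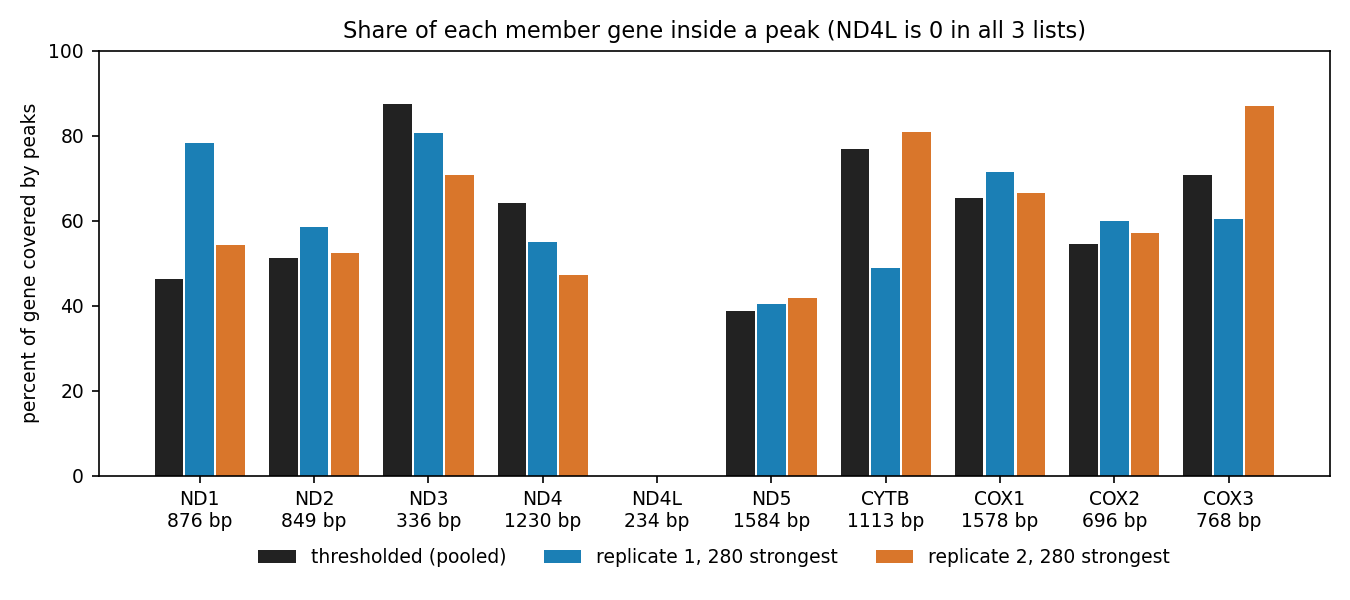
Percent of each gene's length inside a peak (y axis) for the 10 genes (x axis, with gene length), in the thresholded list (black), replicate 1 (blue) and replicate 2 (orange), each replicate cut to its strongest peaks. ND4L is at 0 in all 3, ND5 stays between 38.70% and 41.79%, and CYTB and COX3 differ most in favour of replicate 2 over replicate 1.

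Taking the genes by complex, the CYTB gene of complex III was covered over 76.91% of its length, the complex IV genes over 64.27% and the complex I genes over 49.65%, with 3, 7 and 11 thresholded summits. ND6, which also encodes a complex I subunit and is not among the 10, was 79.77% covered with 1 summit, and with it complex I reached 52.01% and 12 summits. This order did not hold in replicate 1, where CYTB was covered over 48.97%, the complex IV genes over 66.07% and the complex I genes over 54.17%. In replicate 2 the values were 80.86%, 69.63% and 47.02%. All 10 genes make up 67.15% of the mitochondrial genome and held 80.77% of its summits (21 of 26). That count takes overlapping peaks separately: merging them removed 11 of the 26 and left 11 summits inside the members. Of the members' 9263 bp, 57.72% was covered, beside 54.7% of the whole circle. For comparison, thresholded peaks covered 75.94% of the combined length of ND6 and ATP6, 58.91% of the 2 rRNA genes, 25.26% of the tRNA genes and 0% of the AT-rich region (chrM:13329-13794), of which replicate 1 covered 23.18%. The replicates differed most on ND6 and ATP6, with 69.57% covered in replicate 1 and 16.71% in replicate 2, where ND6 had no peak. The rRNA genes were covered over 59.7% and 79.03%, the tRNA genes over 27.28% and 38.74%, and the members over 57.45% and 58.51%, in replicates 1 and 2. Summits were spread evenly along the members, with 7 in the first, 7 in the middle and 7 in the last equal part of a gene. The counts were 6, 6 and 8 in replicate 1 and 4, 6 and 8 in replicate 2.

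Coverage depends on a width set by the caller. In the thresholded list 264 of 280 peaks were 430 bp wide, and 10 of the 16 others were mitochondrial, the narrowest of these 116 bp. The common width was 396 bp in replicate 1 and 476 bp in replicate 2. Summits on the circle were never closer to each other than 199 bp in the thresholded list and 202 bp in replicate 1. The weakest member peaks inside the threshold had signals of 34.45 in ND4, 58.27 in COX1 and 69.57 in ND5. Just outside it, at rank 287 of the pooled list, was a COX3 summit at base 6445 with a signal of 27.24, where the weakest thresholded peak had 27.45. The 1 other mitochondrial peak outside lay far below, at rank 1291 with a signal of 17.17, over the end of COX2 with its summit in tRNA-His.

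Both replicates covered 46.08% of the members' bases, replicate 1 alone 11.37%, replicate 2 alone 12.42% and neither 30.13%. By gene, the share covered in both was highest in ND3 (70.83%) and, after ND4L at 0%, lowest in ND5 (32.77%) and ND4 (33.41%). Across the 10 genes the covered percentages of the replicates had r of 0.7528 and rho of 0.5879, a description in which gene length and ND4L weigh on both axes.

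The replicates were less close on the exact summit. For the 20 member peaks found in both, the median distance between their summits was 108.5 bp, and 1 of the 20 pairs lay within 50 bp, the one at the first CYTB summit. Over all 24 mitochondrial peaks found in both replicates, members included, the median was 107.5 bp and 2 pairs lay within 50 bp. Most of these pairs are the member pairs themselves. Those outside the members were 60 and 66 bp apart in the s-rRNA gene, 37 bp in the l-rRNA gene and 386 bp at ATP6. They are too few to say whether the wider distance is particular to the members. For the nuclear peaks of the thresholded list the median was 44 bp and 141 of 250 pairs (56.4%) lay within 50 bp. Thresholded member summits were a median of 48 bp from the nearest overlapping summit of replicate 1 and 46.5 bp from that of replicate 2, against 20.5 bp and 27.5 bp for nuclear summits. Several thresholded peaks share 1 replicate peak, as both ND5 summits in chrM:12190-12686 do with the replicate 1 summit at 12495, which lengthens some of these distances.

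**Figure D3:**
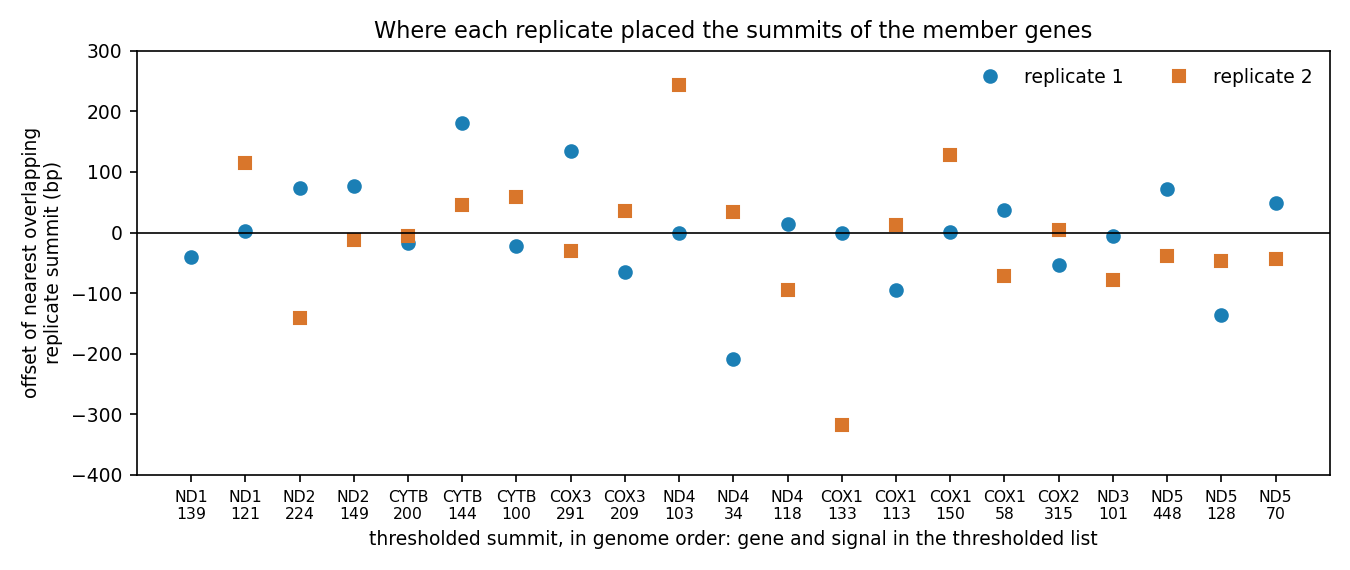
Offset in bp (y axis) of the nearest overlapping summit of replicate 1 (blue circles) and replicate 2 (orange squares) from each of the 21 thresholded member summits (x axis, in genome order, with gene and signal). Points at 0 are the same base, and the first CYTB peak has both replicates within 18 bp of it.

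Stretches with no thresholded peak made up 45.3% of the circle in 15 pieces, counted across base 1. The longest ran from 3854 to 4585 (732 bp), from the 3′ part of ND2 across 4 tRNA genes into the 5′ end of CYTB. The next, from 9242 to 9964 (723 bp), ran from the 3′ end of COX1 across another 4 tRNA genes into COX2. Further ones ran across the end of ND3 and the 5′ end of ND5 (11650 to 12189, 540 bp) and from the 3′ end of ND5 through the AT-rich region and across base 1 into tRNA-Pro (13252 to 13794 and 1 to 29, 572 bp). In replicate 2 that last stretch was the longest, 1405 bp, since it ran on through ND6 and ND4L to base 816. Much of this was bare in every list, with no threshold applied: 3914 to 4585, all of 11650 to 12189, 460 to 816 around ND4L, 6660 to 6947 in ND4 and 8527 to 8755 in COX1. The 61 bases at the middle of the ND5 stretch are given as an example of member sequence with no peak.
ND5 uncovered, chrM:11910-11970: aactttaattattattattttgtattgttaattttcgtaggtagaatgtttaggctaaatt

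The 22 tRNA genes fall into 10 runs between the larger genes, the sites at which the transcript is cut. No thresholded summit lay inside a tRNA gene, which together make up 8.982% of the circle, and 1 of 26 lay within 50 bp of one, an area of 16.32% of the circle. That one was the ND2 summit at 3440, 23 bp downstream of tRNA-Ser (AGN). In replicate 1, 2 of 25 summits lay within 50 bp of a tRNA gene and 0 inside one. In replicate 2 it was 2 of 23, and both lay inside the gene, in tRNA-Lys and tRNA-His. Those 2 were 8.696% of its summits, near the share of the circle that tRNA genes make up. Thresholded intervals touched 8 tRNA genes, 4 of them over their whole length, and left 14 untouched.

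The runs differed from each other. Those before ND1 (tRNA-Ser, -Asn and -Tyr), between ND2 and CYTB (tRNA-Ile, -Arg, -Gln and -Phe) and between CYTB and COX3 (tRNA-Leu) had 0% of their length covered in all 3 lists. The run before ND2 (tRNA-Lys, -Leu and -Ser) was covered over 100% of its length in the thresholded list and in replicate 2, and over 59.20% in replicate 1. The tRNA-His gene after COX2 was covered over 85.45%, with 100% in each replicate. At 4 other runs the replicates differed: tRNA-Ala after ND5 was covered over 100% in replicate 1 and 0% in replicate 2, and tRNA-Cys to tRNA-Gly between COX1 and COX2 over 0% in replicate 1 and 50.22% in replicate 2.

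**Figure D4:**
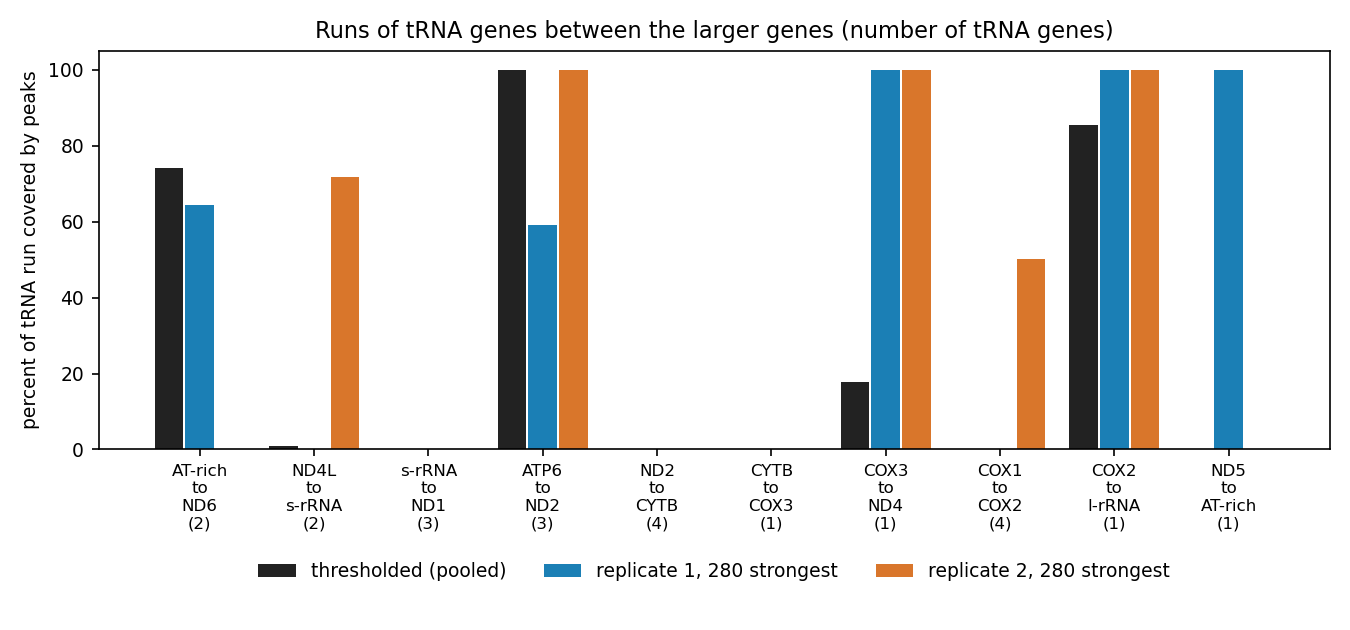
Percent of each of the 10 tRNA runs inside a peak (y axis), with the genes before and after it and the number of tRNA genes on the x axis, in the thresholded list (black), replicate 1 (blue) and replicate 2 (orange). The runs before ND1, CYTB and COX3 stand at 0 in all 3 lists.

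Within the members, bases under thresholded peaks were less rich in A+T than bases outside. The same held over the whole circle, with 73.55% A+T in covered and 79.45% in uncovered bases. The covered member bases were 72.79% A+T and the uncovered ones 78.60%. In this list the difference lay mostly in T, which was 43.31% of covered bases and 48.80% of uncovered ones, while A was 29.47% and 29.80%. In replicate 1, T was 43.52% and 48.49%, and A was 29.8% and 29.36%. In replicate 2, T was 44.45% and 47.31%, and A also differed, at 29.13% and 30.29%. In the thresholded list G was 16.78% of covered and 13.64% of uncovered member bases. Replicate 1 gave 73.32% A+T in covered and 77.85% in uncovered member bases, and replicate 2 gave 73.58% and 77.60%. Gene by gene, the covered part was lower in A+T in 8 of the 9 members with a peak, with a median covered minus uncovered difference of -4.06 percentage points, the exception being ND3 (78.91% covered, 76.19% uncovered). In replicate 1 it was lower in 8 of 9, with ND3 again the exception, and in replicate 2 in 6 of 9, the exceptions being ND1, COX1 and ND3.

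At the summits themselves, windows of 50 bp on each side had 69.92% ± 5.87 A+T (SD over the 21 member summits), against a mean of 75.08% and a median of 75.25% over windows centred on every member base. The member summits of the replicates lay nearer to that mean, at 72.82% in replicate 1 (20 summits) and 72.55% in replicate 2 (18 summits). Of the 21, 18 lay below that median and 17 below the A+T content of their own gene, and the count below their own gene was 12 of 20 in replicate 1 and 12 of 18 in replicate 2. The 3 summits above the median were in ND2 (77.23%), ND3 (79.21%) and ND5 (the one at 13191, 81.19%). Among the peaks, height did not follow composition closely: over the 26 mitochondrial peaks log2 signal and A+T of the window had r of -0.1516 and rho of -0.1523, a description over overlapping peaks. Neighbouring bases share composition and these windows overlap, so no test is given, and whether base composition has a part in where peaks were called was not tested.

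**Figure D5:**
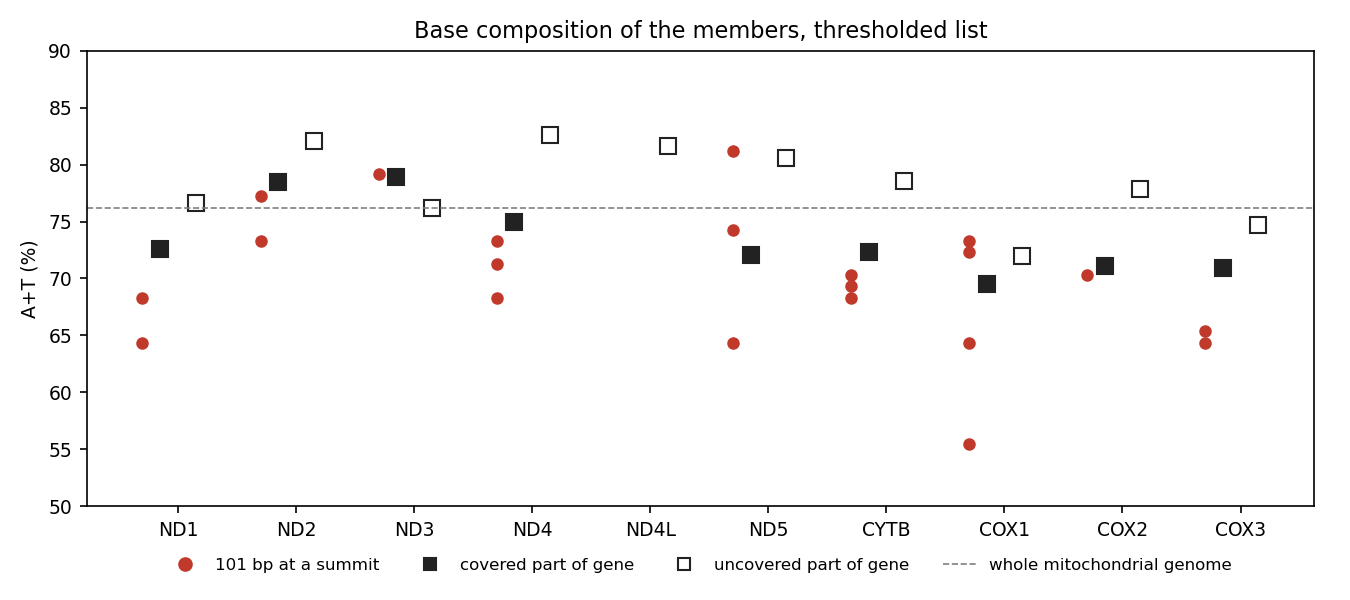
A+T content in percent (y axis, from 50 to 90) for each of the 10 genes (x axis): windows at thresholded summits (red points), the covered part of the gene (filled squares) and its uncovered part (open squares), with the whole mitochondrial genome as a dashed line. Covered lies below uncovered in every gene with a peak but ND3, and ND4L has an uncovered value only.

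The members were also set beside 55 nuclear-encoded genes for subunits of the same complexes. With a window from 1000 bp before a gene's 5′ end to 500 bp after it, 2 of the 55 had a thresholded summit, and 0.801% of all nuclear protein-coding genes had one. They were cox-5B (signal 57.68, rank 46) and cox-6A (35.15, rank 136), both genes for complex IV subunits. Among each replicate's strongest peaks the count was likewise 2, with 0.791% of all nuclear protein-coding genes in replicate 1 and 0.786% in replicate 2. In the pooled list with no threshold, 35 of the 55 (63.64%) had a summit, and 24.7% of all nuclear protein-coding genes did. Both signals were above that of 1 member peak, the ND4 peak of 34.45, and below those of the other 20.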

How the data were processed

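The ChIP-seq samples were 2 biological replicates of 1 group, with peak lists per replicate, pooled and thresholded, on builds ce11 and ce10. According to the deposited notes, peaks had been called by the authors per replicate and on the pooled alignments, with a control alignment that was not analysed here. For the aligner, the caller and their versions, nothing is given in the sources used here. The signal of a peak is the authors' deposited value and served to rank and describe the peaks of each list, and the replicate values were also correlated. The deposited −log10 q-value had the same value in every thresholded ce11 peak, so it ranked none. The thresholded peaks were the pooled peaks of highest signal. Read depth is unknown, since the lists hold no read counts.

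Peaks were joined to RefSeq gene bounds on WBcel235, with Ensembl release 115 bounds as an alternative, by an overlap of at least 1 bp, in Python 3.11.15 with numpy 2.4.6 and pandas 2.3.3. Coordinates are 1-based. A replicate's strongest peaks are the 280 of highest signal in its own list. Leaving out a replicate meant taking those of the other one, not a repeat of the thresholding. Interval code was tested on simulated data. No test was run, because there is 1 group and peaks on 1 circle are not independent. All 10 genes are named, and the members and the list of nuclear-encoded genes were chosen with earlier results of these data known.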

Additional observations from a re-analysis of the deposited data

How the results depend on the processing

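Of 59 alternative values computed, 37 stayed within the limits set for them and 22 moved. For counts the limit was a fixed ratio to the main value. For percentages and the median signal it was the SD of the 2 values with a replicate left out. That SD was 0.03896 percentage points for A+T, so every A+T alternative counted as moved. The tally therefore depends on how close those 2 values were. The count of members with a peak was 9 under every alternative run, including either replicate alone, the stronger 50% of the thresholded peaks (called the stronger part below), no threshold, a summit inside the gene and Ensembl bounds. Merging overlapping peaks brought the peaks over members to 12 and the summits inside them to 11. The percentage of member length covered was 56.42 with the stronger part of the list and 59.39 with no threshold, and 57.45 to 58.51 with a replicate left out. The median member signal was 65.71 to 93.62 with a replicate left out, where the lists are not known to share a scale. Summits within 50 bp of a tRNA gene numbered 3 with no threshold and 2 with either replicate left out, and 3 of the thresholded summits lay within 100 bp. Mean A+T at all mitochondrial summits was 70.64% in the thresholded list, 70.73% in its stronger part, 71.22% with no threshold, 71.68% after merging, 72.02% in windows of 25 bp and 72.35% in windows of 100 bp on each side, and 72.58% to 72.63% with a replicate left out. The uncovered share of the circle was 46.17% with the stronger part, 42.4% with no threshold and 46.69% on build ce10. Nuclear-encoded respiratory chain genes with a summit numbered 35 of 55 with no threshold, where 24.7% of all nuclear protein-coding genes had one, an alternative chosen after seeing the data, as were the Ensembl bounds. The causes were not tested. The median signal on build ce10 was not run, since it needs gene coordinates on that build. No paired analysis was possible because the samples form 1 group. With 2 replicates and no read depth, neither the signals nor the summit positions carry an error of their own.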

Other observations

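A hexamer of the kind nuclear receptors bind, AGGTCA, was searched on both strands in windows of 50 bp on each side of a summit. It was in 0 of the 26 thresholded mitochondrial windows and in 1.392% of windows centred on every base of the circle, from 2 occurrences. A variant, AAGTCA, was in 0 of the 26 windows and in 2.088% of all windows, from 3 occurrences. Another, AGTTCA, was in 0 of the 26 and in 3.48% of all, from 5 occurrences. These letters being absent from the windows says nothing about the receptor.

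For stretches of 32 bases starting at each base of a member, an exact copy in the nuclear genome was found for 3 of 1113 in CYTB and for 0 in each of the other 9 genes. Within the mitochondrial genome none of them was repeated, whereas 41.2% of those in the AT-rich region were.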
